A study of Mus musculus with 4 samples.

Results

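The orphan and adhesion G protein-coupled receptors are 75 genes of excitatory neurons of the mouse ventromedial prefrontal cortex (vmPFC). They were chosen by symbol (Gpr followed by a number, Gprc5a to Gprc5d, or Adgr followed by a letter and a number, Gpr108 left out) and by at least 20 UMIs summed over all excitatory neurons, where a UMI is 1 counted transcript molecule. The symbols matched 97 of the 31053 genes in the count tables, 75 of these 97 reached 20 UMIs, and 16769 genes of any kind did so. Of the 75 members, 22 are adhesion receptors and 53 are not. Just inside the limit lay Gpr82 and Adgrf2 with 20 UMIs and Gpr35 with 21, and just outside it lay Gpr182 with 19, Gpr149 with 15 and Adgre4 with 13.

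G protein-coupled receptors cross the membrane several times and pass a signal from outside the cell to G proteins, which raise or lower cyclic AMP, calcium or other messengers inside it. Orphan receptors are those for which no natural ligand has been agreed on, although for some a lipid, peptide, metabolite or proton has been proposed. Most adhesion receptors carry a long extracellular part that binds proteins on neighbouring cells or in the matrix. In many, but not all, this part is cut near the membrane. Several adhesion receptors act at synapses, in myelination or in vessels.

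Male C57BL/6 mice, 8 weeks of age at injection, had been injected on 1 side with rAAV-EGFP-BARCODE viruses, each with its own barcode, in 5 targets of the vmPFC, so all animals compared here carried the same viruses. The cells were taken weeks after the injection, when the animals were older. The targets were, in the forebrain's cortex, striatum and amygdala, the agranular insula (AI), the dorsomedial part of the striatum (DMS) and the basolateral nucleus (BLA), and deeper the mediodorsal thalamus (MD) and lateral hypothalamus (LH), and a neuron with an axon there can take up the virus and express EGFP and the barcode from a CAG promoter. Single-cell libraries were made from the prelimbic and infralimbic areas: 3 of unsorted cells, titled mouse 1, 2 and 3, and 1 of EGFP-positive cells sorted from 3 further mice that were pooled. There was no uninjected group, and the methods describe the unsorted cells as loaded in 3 lanes, so p-values measure the spread between these libraries.

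The files hold 8040, 7443 and 7243 cell barcodes of unsorted cells and 2075 of sorted cells, with 54749198 to 87841541 UMIs per library. The authors' table lists 9368 excitatory neurons (2816, 2486, 2463 and 1603 by library) in 7 subtypes named for a layer and a gene. Any pair of libraries shared 5 to 30 cell barcodes, of which 0 to 4 were among the neurons. The excitatory markers Slc17a7, Neurod2, Neurod6, Tbr1 and Camk2a together reached 1419 to 2470.05 counts in 1000000 (CPM) in the subtypes of unsorted cells, and none of them was at 0. The median unsorted neuron held 21344 to 23213 UMIs and the median sorted one 31669. The members took 472233 UMIs, which is 0.208% of all UMIs of the neurons, and the shares by library were 0.205%, 0.201% and 0.198% unsorted and 0.231% sorted.

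Levels are the UMIs of a gene per 1000000 UMIs of a sum over the neurons of 1 library and subtype, in CPM. They are counts of transcript ends, not divided by length, so levels are compared between cells for 1 gene and not between genes. Values of 4 libraries are given in the order unsorted 1, 2, 3 and sorted.

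A contrast of neurons with many against no viral barcode UMIs, described after the levels, called 3 members: Gpr83 (chr9:14860210-14870789 on the plus strand, mm10), Adgra1 (chr7:139834174-139878088, plus) and Adgrg6 (chr10:14402583-14545659, minus). RefSeq promoter windows of build GRCm38.p6 were matched by symbol for 55 of the 75 members, these 3 among them. The window of Adgrg6 lies within a first exon of a longer GENCODE M21 transcript of the gene and is not shown. The 250 bases before the starts of Gpr83 and Adgra1 are shown. Gpr83 was called lower and Adgra1 higher with the barcode, but in different subtypes. Where Gpr83 was called, the log2 fold change of Adgra1 was -0.003 (L5-S100b) and 0.05 (L2/3-Rorb). Gpr83 was not tested in L5-Bcl6, where Adgra1 was called. In all, 4 motifs were searched on both strands, and capitals mark the cyclic AMP response element core TGACG, which reads CGTCA on the other strand.
Gpr83, chr9:14859960-14860209, plus strand: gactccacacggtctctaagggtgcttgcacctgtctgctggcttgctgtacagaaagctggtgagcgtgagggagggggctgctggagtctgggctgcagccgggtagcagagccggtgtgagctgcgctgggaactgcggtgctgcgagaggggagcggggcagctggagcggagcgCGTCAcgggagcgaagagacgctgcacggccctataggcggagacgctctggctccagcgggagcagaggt
Adgra1, chr7:139833924-139834173, plus strand: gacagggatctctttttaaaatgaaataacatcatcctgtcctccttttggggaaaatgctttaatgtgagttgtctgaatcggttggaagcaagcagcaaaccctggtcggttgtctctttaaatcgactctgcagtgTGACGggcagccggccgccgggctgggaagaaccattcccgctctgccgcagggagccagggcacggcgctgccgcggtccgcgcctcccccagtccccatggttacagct

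Both windows held TGACG once, with its first base 71 bases before the start in Gpr83 and 111 before it in Adgra1, and 17.8% of all 32851 windows of this length held it. GGGCGG was in neither, and in 32.7% of all windows. TATAAA was in neither, and in 12.4% of all windows. The E-box CANNTG was found at 2 places in Gpr83 and 0 in Adgra1, and 66.2% of all windows held it. G and C made up 66.8% of the Gpr83 window and 56.4% of that of Adgra1, where the median of all windows was 52.4%. These matches are descriptions of letters, and binding at them was not measured.

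By subtype, 20 of the 75 members had a subtype whose lowest unsorted library lay above the highest unsorted library of every other subtype, and 12 had one that lay below all others in the same way. Of all 16769 genes, 29% had such a highest subtype and 19.1% such a lowest one. The authors made the subtypes by clustering these cells on expression, so these levels are a description and no test was run. With the sorted library included, where more values have to lie apart, 13 members kept a highest subtype by the same criterion. The share of all genes that did so is not given here. Of the 41 members with at least 200 UMIs, 16 had a highest subtype (39.0%), and of the 13117 such genes 33.5% did.

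Latrophilins bind teneurins and FLRT proteins across the synapse, and all but Adgrl4 were detected at over 30 CPM in every subtype. Adgrl1 was among the most even members, at 358 ± 23.9 CPM (SD, n = 3 unsorted libraries) in L5-S100b and 254 ± 7.74 CPM in L5-Htr2c, a ratio of 1.41. Its level was higher in the sorted library in every subtype, at 597 CPM in L2/3-Rorb against 328 to 334 CPM unsorted. Of the 8982 genes with at least 10 CPM in L2/3-Rorb, 4571 lay above all unsorted libraries in the sorted one. Adgrl2 stood highest in L5-Bcl6, at 104, 134 and 123 CPM in unsorted libraries 1 to 3 and 149 CPM in the sorted library. Its mean there was 1.36 times that of the next subtype, L2/3-Rorb (88.3 CPM), and 3.29 times that of L5-Htr2c (36.6 CPM), which lay below all others. Adgrl3 was lowest in L6-Syt6, at 79.7, 77.9, 77 and 80.3 CPM, and its mean was highest in L2/3-Calb1 (174 ± 12.6 CPM) and next in L5-Bcl6 (160.1 ± 4.70 CPM), whose libraries overlapped with those of L2/3-Calb1.

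The brain angiogenesis inhibitor receptors, which take part in synapse formation and of which Adgrb3 binds C1q-like proteins, had their lowest means in L5-Htr2c or L6-Syt6. Adgrb1 stood highest in L2/3-Calb1, at 295, 277 and 255 CPM in unsorted libraries 1 to 3 and 328 CPM in the sorted library, 1.14 times the level of L6-Npy (243 ± 4.17 CPM). In L5-Htr2c it stood below all other subtypes at 125, 109, 124 and 97.6 CPM, and so did Adgrb2 at 107, 114, 96.6 and 48.8 CPM, where the next lowest subtype, L6-Syt6, was at 161 ± 2.88 CPM. The sorted values of L5-Htr2c rest on 4 neurons. Adgrb3 was the most even of the 20 members with at least 10 CPM in every subtype, with means from 176 CPM in L6-Syt6 to 216 CPM in L6-Npy, a ratio of 1.23.

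The other adhesion receptors held the most uneven member of those 20. Adgra1, an orphan of this class, was at 153, 155, 147 and 178 CPM in L6-Syt6 and at 146, 141, 131 and 184 CPM in L5-Bcl6. These neighbours in the order differed by a ratio of 1.09, and their unsorted libraries did not overlap. In L2/3-Calb1 Adgra1 stood lowest, at 23.7, 24.1, 24.2 and 30.9 CPM, so that the highest mean was 6.32 times the lowest. Adgrg1, a receptor needed for cortical layering and for the precursors of oligodendrocytes, stood highest in L5-Htr2c at 29.7, 32.1, 24.8 and 73.2 CPM, 3.19 times the L6-Syt6 mean of 9.06 CPM, and lowest in L2/3-Calb1 at 1.16 CPM. Adgrg6, which Schwann cells need for myelination, stood highest in L5-S100b at 13.7, 7.87, 11.5 and 11.9 CPM, with L2/3-Rorb next at 6.74 ± 0.789 CPM.

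Among the class C orphans, Gpr158, which partners the G protein regulator RGS7 at the membrane, stood highest in L2/3-Rorb at 195, 185, 175 and 227 CPM. The next subtype, L5-S100b, was at 124 ± 8.76 CPM, and the lowest, L6-Npy, at 49.1 ± 1.29 CPM, so the highest mean was 3.77 times the lowest. Gprc5b was high in 1 subtype of the neurons: it was at 45.9, 48.9, 40.6 and 74.6 CPM in L5-Bcl6, and the next highest mean, in L5-Htr2c, was 3.59 CPM, a ratio of 12.6.

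Of the receptors that raise cyclic AMP without a known ligand, Gpr12 stood highest in L2/3-Calb1 at 18, 18.2, 20.3 and 24.5 CPM, with L6-Npy next at 15.3 ± 0.800 CPM, and lowest in L5-Htr2c at 2.39 CPM. In the SREB family, the receptors most conserved among those of the brain, Gpr27 stood highest in L2/3-Calb1 at 85.4, 101, 80.8 and 93.5 CPM, 1.42 times the L2/3-Rorb mean. Gpr85 stood highest in L6-Npy at 113, 119.6, 119.8 and 136 CPM, 1.13 times the L6-Syt6 mean of 104 CPM. Both were thus detected in every subtype, with highest subtypes in different layers.

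Gpr83, for which the peptide PEN has been proposed as a ligand, was mainly a gene of layer 2/3 in these neurons. It was at 48.4, 49.2, 50.2 and 109 CPM in L2/3-Rorb and at 32.4, 29.5, 19.8 and 45.4 CPM in L2/3-Calb1, and the unsorted libraries of these subtypes did not overlap. L6-Npy (13.4 ± 0.940 CPM) and L5-S100b (10.5 ± 1.26 CPM) followed, and L6-Syt6 and L5-Htr2c were at 0.662 and 0.644 CPM, which makes the highest mean 76.5 times the lowest. In each of the 4 subtypes with over 10 CPM, the sorted library lay above all 3 unsorted ones, at 109 CPM in L2/3-Rorb. In that subtype it did so for 4571 of the 8982 genes with at least 10 CPM. The proton-sensing receptor Gpr4 stood highest in L5-Bcl6 at 7.20, 10.6, 4.96 and 8.35 CPM.

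Orphans of class A differed in the subtype where they were highest or lowest. Gpr26 stood highest in L2/3-Rorb at 147, 146, 142 and 254 CPM, 1.68 times the L2/3-Calb1 mean of 86.2 CPM. Gpr153 also stood highest there, at 11.7, 11.5, 16.3 and 23.7 CPM, against 6.29 CPM in L2/3-Calb1. Gpr161, which holds back Hedgehog signalling at the cilium, stood highest in L5-Bcl6 at 11.3, 12.3, 11.7 and 12.3 CPM, 5.02 times the next subtype. Gpr22 showed the opposite picture, with 1 low subtype: it was at 64.6, 66.1, 65.1 and 53.8 CPM in L6-Syt6, at 86.3 ± 5.64 CPM in L5-Htr2c and at 152 to 199 CPM in the others. Gpr162 stood lowest in L5-Htr2c, at 90.8, 92.8, 80.2 and 97.6 CPM.

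Of the 5 multi-pass proteins that carry a Gpr name without being classical receptors, 3 were among the 5 most even members. Gpr89, which sets the pH of the Golgi, ranged from 18.1 to 22.9 CPM, Gpr107 from 26.6 to 35.3 CPM and Gpr180 from 17.5 to 23.3 CPM, ratios of 1.26, 1.33 and 1.33. Gpr137 ranged from 35.1 to 54.1 CPM, a ratio of 1.54. Gpr155, a lysosomal cholesterol sensor, stood highest in L5-Bcl6 at 41.1, 41.7, 46.9 and 37.3 CPM, and its highest mean was 2.85 times its lowest. The remaining members with a highest subtype, Gpr39, Gpr152, Adgrg3 and Gpr139, were under 5 CPM there. Of these, Gpr139, for which aromatic amino acids have been proposed as ligands, had the most UMIs, at 1.90, 2.14, 1.51 and 2.61 CPM in L6-Syt6 against a mean of 0.186 CPM in L5-S100b.

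**Figure D1:**
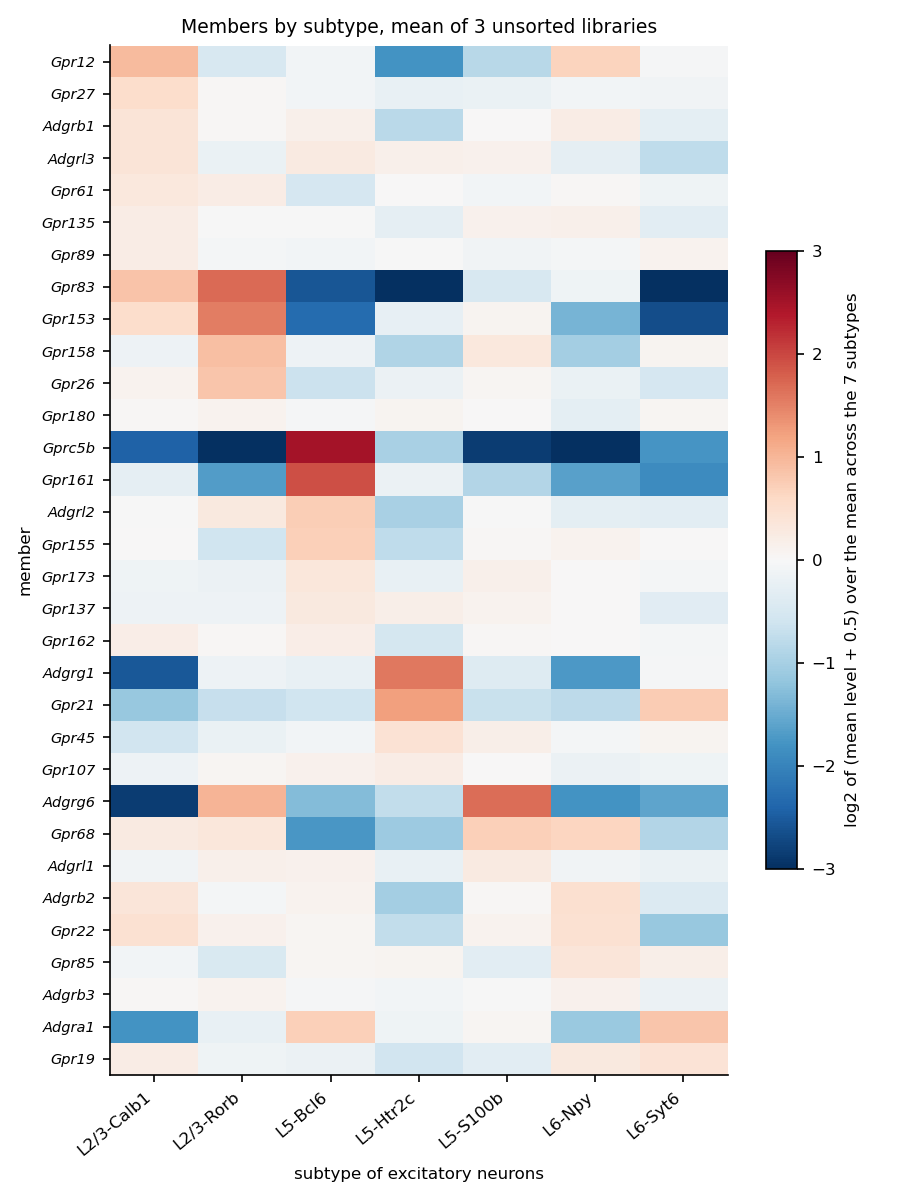
Heat map of the 32 members with at least 10 CPM in a subtype (rows) across the 7 subtypes (columns). The colour is the log2 of the mean of the 3 unsorted libraries plus 0.5 CPM over the mean across the subtypes, capped at 3 in both directions, and Gprc5b, Gpr83, Adgrg6 and Gpr153 span the widest range while Adgrb3, Gpr89 and Gpr107 are nearly flat.

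**Figure D2:**
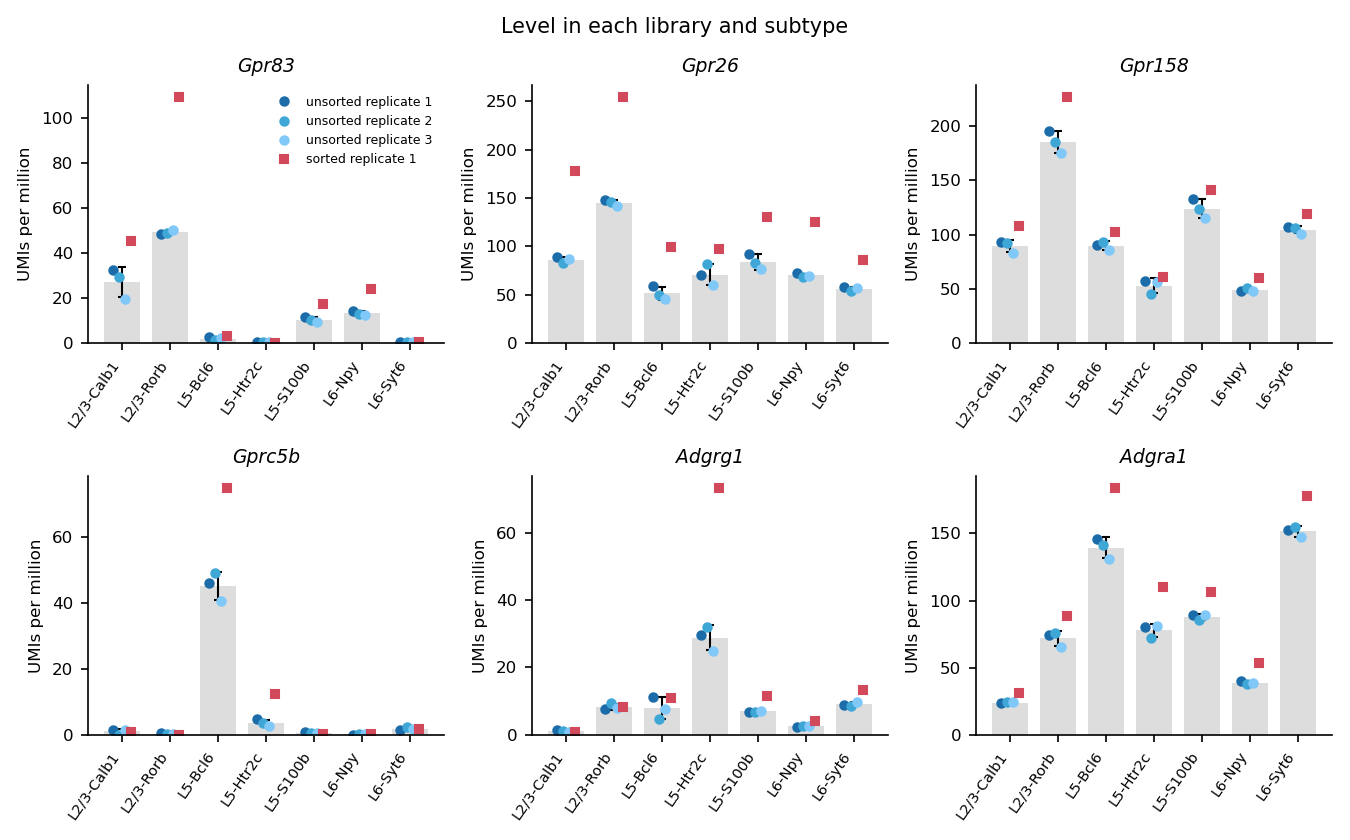
Levels in CPM of Gpr83, Gpr26, Gpr158, Gprc5b, Adgrg1 and Adgra1 in the 7 subtypes. Bars are means of the 3 unsorted libraries with SD, points are the unsorted libraries and squares the sorted library, and Gprc5b stands out in L5-Bcl6, Adgrg1 in L5-Htr2c and Gpr83, Gpr26 and Gpr158 in L2/3-Rorb.

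The sorted library stood above the unsorted ones for many members, by a little, and for many genes of any kind. Among those with at least 10 CPM, 15 of 25 members and 4422 of 8957 genes lay above all 3 in L2/3-Calb1. In L2/3-Rorb 16 of 25 and 4571 of 8982 did, and in L5-Bcl6 12 of 24 and 3997 of 8757. In L5-S100b 16 of 26 and 4510 of 8816 did, in L6-Npy 20 of 26 and 4691 of 8848, and in L6-Syt6 14 of 23 and 4622 of 8640. The median ratio of the sorted level to the unsorted mean over members with at least 10 CPM was 1.19 for L2/3-Calb1 (1.10 over all such genes), 1.19 for L2/3-Rorb (1.08), 1.06 for L5-Bcl6 (1.06), 1.10 for L5-S100b (1.06), 1.17 for L6-Npy (1.09) and 1.08 for L6-Syt6 (1.05). Outside L5-Htr2c, where the sorted library has 4 neurons, 2 values at or above 10 CPM lay more than 2-fold away. They were Gpr83 in L2/3-Rorb (109 CPM against a mean of 49.3) and Gpr26 in L2/3-Calb1 (178 against 86.2). With 1 sorted library there is no test, and the sort, the animals, the depth and the library cannot be told apart.

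Many members belonged to other cells of the tissue. Cells outside the authors' table were put into 9 further classes of the unsorted libraries by at least 3 markers with at least 2 UMIs each. The gate took 2886 microglia, 1645 oligodendrocytes, 1449 endothelial cells, 1320 oligodendrocyte precursors, 1168 inhibitory neurons, 533 mural cells, 416 astrocytes, 82 committed oligodendrocyte precursors and 75 macrophages and left 2099 cells without a class. Cells with exactly 3 markers, which lie at the edge of the gate, numbered 30 of the 82 committed precursors, 112 of the 416 astrocytes, 14 of the 75 macrophages, 68 of the 533 mural cells, 145 of the 1320 precursors, 71 of the 1168 inhibitory neurons and 6 to 14 in each of the other classes. Of the 75 members, 17 had their highest mean level in the excitatory neurons (22.7%, against 15.8% of all 16769 genes). In turn, 25 members reached at least 10 CPM and over 4 times the excitatory level in some class (33.3%, against 24.8% of all genes). This comparison describes levels and has no test.

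Oligodendrocyte lineage cells held several members at high levels. Gpr37, a proposed receptor of prosaposin, was at 989, 980.0 and 986 CPM in oligodendrocytes of unsorted libraries 1 to 3 against 2.84 CPM in excitatory neurons, 347 times as much. Gprc5b was at 512, 503 and 506 CPM, 155 times the excitatory level. Gpr62, an orphan of myelinating cells, was at 209 ± 3.03 CPM and Adgrv1 at 34.8 ± 1.33 CPM. Gpr17, a brake on the maturation of these cells, was at 825, 811 and 791 CPM in precursors and at 1737, 2195 and 2797 CPM in committed precursors, against 0.617 CPM in excitatory neurons. The precursors were also above the excitatory level in Adgra3 (44.05 ± 5.21 CPM, 27.5 times) and Adgrg1 (164 ± 16.8 CPM, 19.98 times), and Adgrv1 was at 15.4 ± 2.62 CPM there. In committed precursors, Gpr146 was at 193 ± 57.7 CPM, Gpr37 at 113 ± 82.03 CPM and Adgrg1 at 84.04 ± 6.31 CPM.

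Microglia and macrophages held receptors of immune cells. Gpr34, a lysophosphatidylserine receptor, was at 1361, 1312 and 1287 CPM in microglia against 0.577 CPM in excitatory neurons. Gpr183, which senses oxysterols, was at 173, 189 and 193 CPM, and Gpr84, which senses medium-chain fatty acids, at 182, 206 and 193 CPM. Adgre1, the antigen F4/80, was at 233 ± 10.4 CPM in microglia and at 639.8, 401 and 539 CPM in macrophages. Gpr34 was lower in macrophages than in microglia in all 3 libraries, at 271 ± 49.6 CPM, as was Gpr183, at 77.04 ± 54.5 CPM. Gpr160 reached 44.2 ± 16.8 CPM in macrophages.

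Vessel cells held adhesion receptors and orphans of other kinds. In endothelial cells Adgrl4, a receptor of the vessel wall, was at 866, 829 and 793 CPM and Adgrf5 at 933, 961 and 939 CPM, against 0.235 and 0.341 CPM in excitatory neurons. Adgre5, the antigen CD97, was at 177 ± 4.73 CPM in endothelial and 118 ± 18.6 CPM in mural cells, and Gpr160 at 25.9 ± 2.40 CPM in endothelial cells. Among members that are not adhesion receptors, Gpr146 was at 194 ± 8.06 CPM and Gpr4 at 92.8 ± 2.16 CPM in endothelial cells, 71.7 and 108 times the excitatory level, and both were highest in this class. Mural cells also held Gprc5c at 199, 205 and 188 CPM, Adgra2, which acts in the growth of brain vessels, at 49.3 ± 5.41 CPM, and Adgrf5 at 25.1 ± 3.89 CPM. Adgra2 and Adgrf5 were highest in endothelial cells, Adgra2 at a mean of 76.1 CPM. The class C orphans were thus divided: Gpr158 was at 105 CPM in excitatory and 98.1 CPM in inhibitory neurons, Gprc5b was highest in oligodendrocytes and Gprc5c in mural cells.

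Astrocytes held Adgrg1 at 412, 380.2 and 349.9 CPM, 46.3 times the excitatory level, Gprc5b at 227, 210.4 and 164 CPM, Gpr146 at 134, 129 and 123 CPM and Adgre5 at 19.7 ± 5.74 CPM. Inhibitory neurons exceeded excitatory ones more than 4-fold in 3 members that reached 10 CPM there, and in others at lower levels, such as Gpr161 at 7.84 ± 0.627 CPM (6.92 times). Gpr83 was at 46.5, 41.4 and 39.6 CPM there, 5.38 times the level summed over all excitatory neurons (7.90 CPM) and close to the 49.3 CPM of L2/3-Rorb. Gpr176 was at 19.2, 21.2 and 16.6 CPM (5.77 times), and Gprc5b at 19.4, 14.2 and 15.6 CPM (5.02 times). Gpr26 was highest in excitatory neurons, at 69.6 CPM against at most 9.60 CPM in any other class.

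The level left in excitatory neurons can be set beside that of marker genes of the other class, which these neurons should lack. The oligodendrocyte markers in excitatory neurons were at 0.0281% to 0.202% of their level in oligodendrocytes, and Gpr37 was at 0.288% and Gprc5b at 0.645%. The microglial markers were at 0.0508% to 0.217% and Gpr34 was at 0.0437%. The markers of oligodendrocyte precursors were at 0.0379% to 1.60% and Gpr17 was at 0.0762%, and for endothelial cells 0.0209% to 0.169% stood beside 0.0283% for Adgrl4 and 0.0362% for Adgrf5. Levels of Gpr34, Gpr17, Adgrl4 and Adgrf5 in excitatory neurons were therefore within or below the range of genes of other cells. Gpr83, at 18.6% of its inhibitory level where the inhibitory markers were at 0.108% to 0.447%, was above that range.

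**Figure D3:**
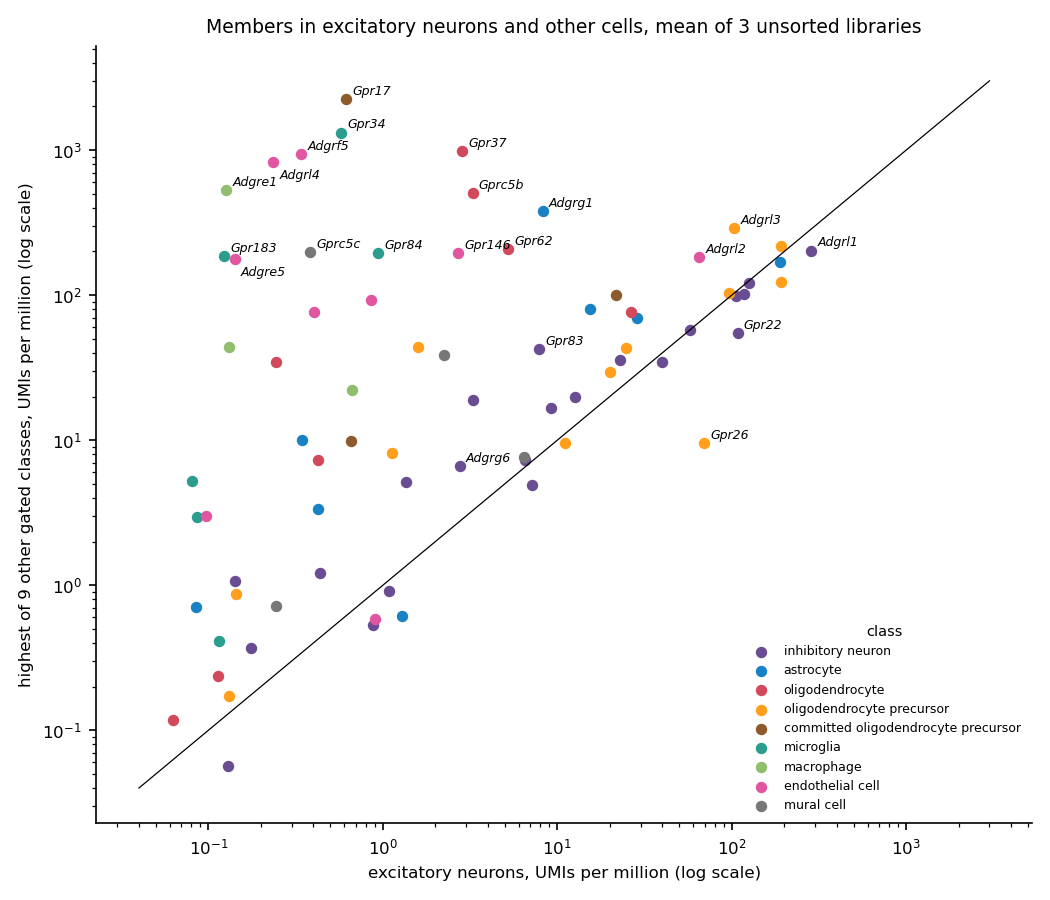
Mean level of each of the 75 members in the excitatory neurons (horizontal axis, CPM, log scale) against its highest mean among the 9 gated classes (vertical axis, CPM, log scale). Each point is 1 member, the line marks equal levels, and Gpr34, Gpr17, Adgrl4, Adgrf5 and Adgre1 lie far above it while Gpr26 and Gpr22 lie below.

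Some members are neighbours on a chromosome (mm10). In 4 pairs no more than 100000 bases lay between the genes. Gpr34 and Gpr82 lie 20505 bases apart on chromosome X, and Gpr18 and Gpr183 lie 36770 apart on chromosome 14, and all 4 genes were highest in microglia. Adgrg1 and Adgrg3 lie 3475 bases apart on chromosome 8, with their highest class being astrocytes and endothelial cells. Adgrf4 and Adgrf2 lie 16652 bases apart on chromosome 17, and Adgrf2 had 20 UMIs in all neurons. Exons of 6 members overlap another gene on the same strand (Adgrb1, Gpr75, Gpr21, Gpr176, Gpr63 and Adgre5), so reads there may be shared.

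The next comparison asked whether members differed between neurons of 1 subtype with much and with no viral barcode. Neurons with 5 or more UMIs of the feature named barcode (barcode-high) were set against those with 0 (barcode-zero), with counts summed per library. The feature was taken to pool the barcodes of all 5 viruses, which was not tested, so a high count says that some target had taken up virus and not which, and the targets were not analysed here. A zero can be a neuron whose barcode was missed. In the sorted library the barcode-zero neurons had passed the sort for EGFP, so they may differ from the unsorted ones. They numbered 24 in L5-S100b and 15 in L2/3-Rorb. A member was called at an adjusted p under 0.05 in edgeR's quasi-likelihood test, with Benjamini-Hochberg adjustment over all genes and the library as a block, together with a log2 fold change of 0.5 or more in either direction. Of the 75 members, 44 passed the low-count filter in at least 1 subtype and 31 in none. There were 4 calls for 3 members.

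In L5-S100b, 37 members were tested and 2 were called, where 2.7% of the 11477 genes tested were called. Gpr83 was at 8.91, 8.97, 8.92 and 12.96 CPM (63, 60, 63 and 94 UMIs) in barcode-high and 15.6, 16.2, 13.5 and 33.3 CPM (19, 15, 14 and 24 UMIs) in barcode-zero neurons, and the groups did not overlap. Its log2 fold change was -0.91 ± 0.21 (± SE, adjusted p = 0.00546 in edgeR's quasi-likelihood test). Adgrg6 went the other way, at 14.7, 8.82, 13.03 and 15.4 CPM (104, 59, 92 and 112 UMIs) against 11.5, 3.24, 5.80 and 1.39 CPM (14, 3, 6 and 1 UMIs). It was higher in barcode-high neurons of 4 of 4 libraries, with overlap between libraries and 1 to 14 UMIs on the barcode-zero side. Its barcode-high counts alone were enough to meet the low-count filter, and with no such filter it was still called. The log2 fold change was 1.12 ± 0.30 (edgeR adjusted p = 0.0188).

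The calls of L5-S100b depended on single libraries. Gpr83 was not called without the sorted library (edgeR adjusted p = 0.0825), whose 24 barcode-zero neurons had been sorted as EGFP-positive. Adgrg6 was not called without unsorted library 2 (0.0962), unsorted library 3 (0.061) or the sorted library (0.114). Without unsorted library 1 the Adgrg6 log2 fold change was 1.75. DESeq2 called neither. Without the library block neither was called, with edgeR adjusted p of 0.195 for Gpr83 and 0.333 for Adgrg6.

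Other members of L5-S100b passed the p limit with smaller changes. Gpr22 was at 137, 140.4, 153 and 122 CPM in barcode-high and 183, 228, 169 and 164 CPM in barcode-zero neurons, without overlap, a log2 fold change of -0.39 ± 0.08 (edgeR adjusted p = 0.00111). Gpr158 differed by 0.29 ± 0.08 (edgeR adjusted p = 0.026), at 139, 126, 118 and 153 CPM against 112, 89.6, 105 and 143 CPM, higher in 4 of 4 libraries with overlap between libraries. Of the 37 members, 32 had a log2 fold change within 0.5 of zero, and the median was 0.04 where that of all genes was 0.00. With DESeq2, over the 75 members and without a low-count filter, the median was -0.11 and that of all genes -0.08. At an unadjusted p under 0.05 there were 9 of 37 members and 1970 of 11477 genes.

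Genes that name the subtypes moved with this contrast. In L5-S100b, S100b was higher in barcode-high neurons by 1.16 on the log2 scale (edgeR adjusted p = 5.12e-05), and Calb1 (-1.01), Bcl6 (-1.24) and Npy (-1.23) were lower (edgeR adjusted p = 0.0263, 0.0168 and 0.0434). Median UMIs per neuron were 25554, 27502, 29004 and 34389 on the barcode-high side and 19307, 23544, 22674 and 28185 on the barcode-zero side. The 5 markers of oligodendrocyte precursors summed to 15.8 to 22.1 CPM in barcode-high and 25.1 to 55.6 CPM in barcode-zero neurons, and 1 of the 2 tested was called lower. Of the 5 excitatory markers 1 was called higher. The part of these in the results for Gpr83 and Adgrg6 was not tested. Among neurons of 10000 to 40000 UMIs both were called, with log2 fold changes of -0.91 and 1.09.

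In L6-Syt6, 0 of 41 tested members were called by edgeR's quasi-likelihood test, against 1.67% of 13030 genes, and DESeq2 called 0 as well. At an unadjusted p under 0.05 there were 14 members and 3307 genes. Adgrl3 was at 64.2, 68.2, 63.8 and 70.01 CPM in barcode-high and 85.1, 83.2, 83.8 and 99.9 CPM in barcode-zero neurons, without overlap, a log2 fold change of -0.35 ± 0.05 under the fold limit (edgeR adjusted p = 0.00477). Adgrl2, another latrophilin, was at -0.20 ± 0.05 (edgeR adjusted p = 0.0534). Gpr19, an orphan of class A, was at 20.3, 19.9, 21.8 and 21.2 CPM (217, 195, 214 and 357 UMIs) against 17.9, 15.9, 17.7 and 8.91 CPM (291, 269, 292 and 24 UMIs). Its groups did not overlap, the barcode-zero value of the sorted library was the lowest, and the log2 fold change of 0.39 ± 0.11 missed both limits (edgeR adjusted p = 0.0676). Without the sorted library 1 member was called, Gpr139, with a log2 fold change of 1.08 ± 0.26 (edgeR adjusted p = 0.000871). With all 4 libraries Gpr139 was at 0.80 ± 0.30 (edgeR adjusted p = 0.133), and it is named after its values were seen. The 9 mural markers summed to 6.78 to 11.8 CPM in barcode-high and 25.1 to 36.0 CPM in barcode-zero neurons with 1 of 2 tested called lower, and Rorb was higher by 0.65 on the log2 scale (edgeR adjusted p = 0.0399). Their part in these values was not tested.

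In L2/3-Rorb, 1 of 31 tested members was called, against 0.139% of 10038 genes. Gpr83 was at 43.1, 40.5, 44.4 and 98.9 CPM (131, 92, 147 and 234 UMIs) in barcode-high and 59.96, 64.4, 53.5 and 161 CPM (51, 49, 35 and 69 UMIs) in barcode-zero neurons. It was lower in barcode-high neurons of 4 of 4 libraries, and the groups overlapped because the sorted library was high in both. The log2 fold change was -0.55 ± 0.13 (edgeR adjusted p = 0.0293), the same direction as in L5-S100b. In L2/3-Calb1, the other layer 2/3 subtype, Gpr83 was on the other side of zero and not called, at 0.28 ± 0.28. It was at -0.27 ± 0.20 in L6-Npy and -0.03 ± 0.43 in L6-Syt6, also not called. The call was lost without unsorted library 1 (0.185), unsorted library 2 (0.0952) or the sorted library (0.281), and without the block (1.00). Without the block 0 of 10038 genes were called. In the fit with all libraries and the block, the next smallest p belonged to Gpr62, at -0.79 ± 0.34 (edgeR adjusted p = 0.609), and Adgrb2, at 0.17 ± 0.08 (0.658). The 9 mural markers summed to 5.07 to 28.0 CPM in barcode-high and 0 to 4.58 CPM in barcode-zero neurons, with none tested.

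In L5-Bcl6, where the 3 unsorted libraries had enough neurons, 1 of 24 tested members was called, against 0.0686% of 8752 genes. Adgra1 was at 154, 152 and 146 CPM (307, 232 and 212 UMIs) in barcode-high and 87.4, 96.8 and 97.4 CPM (36, 44 and 42 UMIs) in barcode-zero neurons, and the groups did not overlap. It rose by 0.68 ± 0.14 (log2, edgeR adjusted p = 0.0424). The call was lost without unsorted library 1 (0.187) or 2 (0.116), without the block (0.0621) and among neurons of 10000 to 40000 UMIs (0.219). In that last setting 0 of 8567 genes were called. Over the 9 alternatives the log2 fold change of Adgra1 was 0.62 to 0.73. Gpr155 was at -0.36 ± 0.21 and Gpr158 at 0.27 ± 0.16 (edgeR adjusted p = 0.838 and 0.838). The 5 markers of oligodendrocyte precursors summed to 4.84 to 10.5 CPM in barcode-high and 11.6 to 19.4 CPM in barcode-zero neurons, none of them was tested, and their part in the result was not tested.

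No member was called in L2/3-Calb1 (23 tested, 0.18% of 8340 genes called, unsorted libraries alone) or in L6-Npy (27 tested, 0.801% of 10365 genes called) by edgeR's quasi-likelihood test. At an unadjusted p under 0.05 there were 0 of 23 members and 473 of 8340 genes in L2/3-Calb1 and 4 of 27 members and 1096 of 10365 genes in L6-Npy, and DESeq2 called 0 in both. In L2/3-Calb1 the smallest p belonged to Adgrb2 (-0.22 ± 0.12, edgeR adjusted p = 0.857), Gpr180 (-0.54 ± 0.30, 0.889) and Gpr26 (0.30 ± 0.17, 0.889). In L6-Npy they were Gpr22 (-0.19 ± 0.06, edgeR adjusted p = 0.136), Gpr173 (-0.53 ± 0.22, 0.328) and Adgrb1 (0.15 ± 0.06, 0.355). L5-Htr2c had 2 to 4 barcode-high neurons per library and was not tested.

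**Figure D4:**
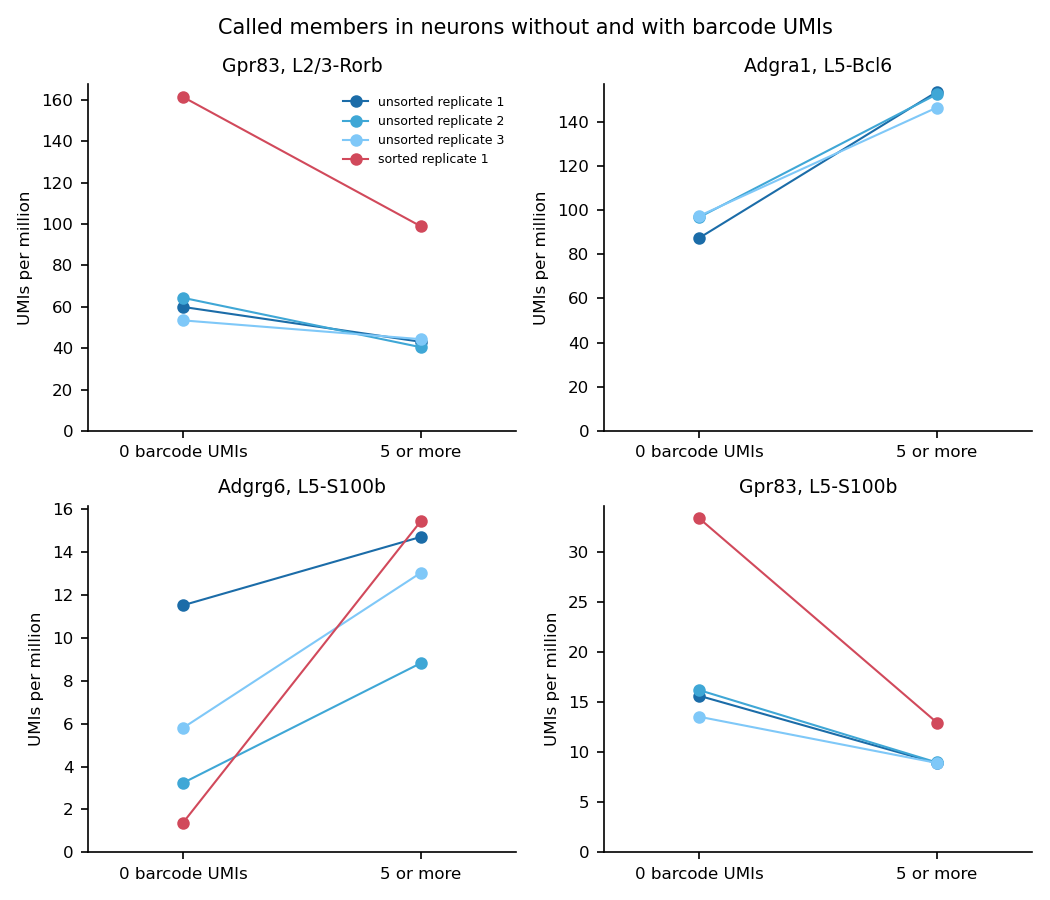
Level in CPM of the 4 called pairs of member and subtype in barcode-zero and barcode-high neurons. Each line joins the values of 1 library, and all lines of a panel run in 1 direction: down for Gpr83 and up for Adgrg6 and Adgra1.

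**Figure D5:**
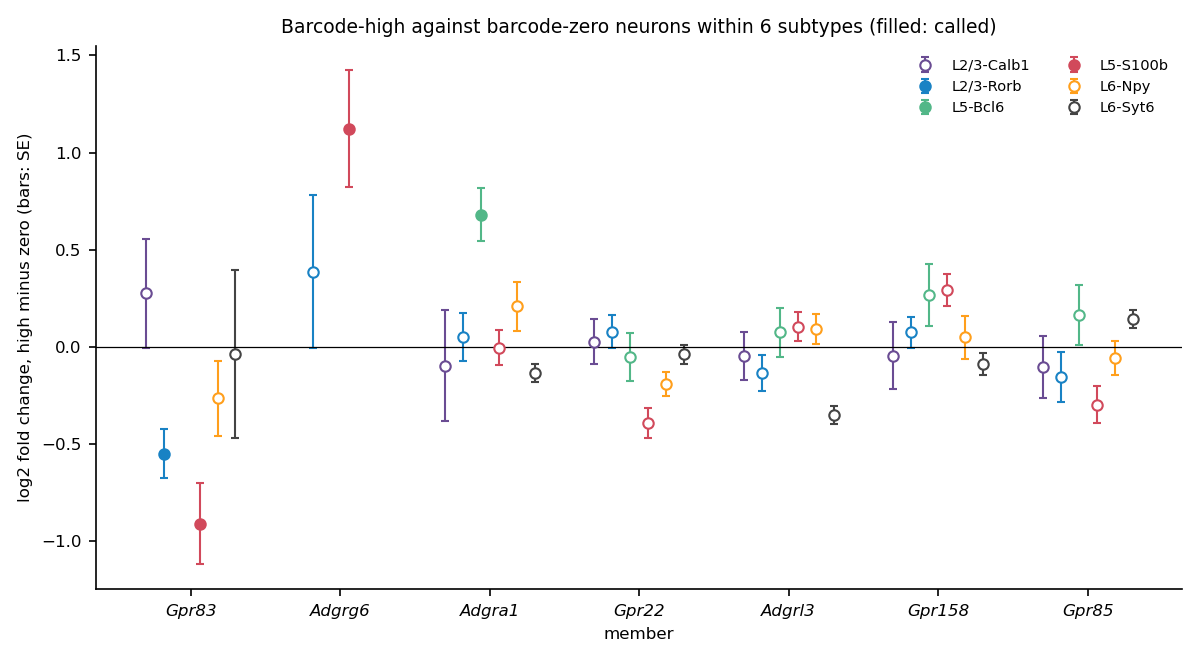
Log2 fold change of barcode-high over barcode-zero neurons with its SE for 7 members (Gpr83, Adgrg6, Adgra1, Gpr22, Adgrl3, Gpr158 and Gpr85) in the subtypes where each was tested. Filled points passed both limits, and Gpr83 lies below zero in L2/3-Rorb and L5-S100b while Adgrg6 in L5-S100b and Adgra1 in L5-Bcl6 lie above it.

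By role, the calls fell on 2 of the 5 other adhesion receptors that were tested (Adgra1 and Adgrg6) and on 1 of 4 tested receptors with a proposed ligand (Gpr83). None of the 16 tested class A orphans, 3 brain angiogenesis inhibitors, 3 tested latrophilins, 2 tested class C orphans, 3 SREB receptors, 5 multi-pass proteins, 2 tested receptors that raise cyclic AMP or the 1 tested proton-sensing receptor was called. The calls came from different subtypes, where 0.0686% (L5-Bcl6), 0.139% (L2/3-Rorb) and 2.7% (L5-S100b) of all tested genes were called. Whether roles differ was not tested.

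Whether the barcode effect differed between subtypes was tested in 1 fit over the 4 subtypes with all 4 libraries (L2/3-Rorb, L5-S100b, L6-Npy and L6-Syt6), with 12081 genes and 36 members tested in each of 6 pairs. A difference was called at an edgeR adjusted p under 0.05, and 8 differences of 6 members were. Members called numbered 1 for L2/3-Rorb against L5-S100b (0.695% of genes called), 0 for L2/3-Rorb against L6-Npy (0.0166%), 0 for L2/3-Rorb against L6-Syt6 (1.47%), 0 for L5-S100b against L6-Npy (1.13%), 6 for L5-S100b against L6-Syt6 (6.7%) and 1 for L6-Npy against L6-Syt6 (3.36%). The pairs with 0 had 3, 5 and 3 of 36 members at an unadjusted p under 0.05 in the same edgeR test, and 705, 1522 and 1199 of 12081 genes.

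Between L5-S100b and L6-Syt6, the effect on Adgrl3 differed by 0.45 ± 0.09 (log2 ± SE, edgeR adjusted p = 0.000682), and those on Gpr158, Gpr22, Gpr85 and Gpr137 by less than 0.6 in either direction. The sixth member counted there, Adgrg6, had 5, 4, 0 and 4 UMIs in barcode-high and 4, 20, 18 and 0 UMIs in barcode-zero neurons of L6-Syt6, did not pass the low-count filter of that subtype, and entered the joint fit through the subtypes where it is higher. Adgrl3 also differed between L6-Npy and L6-Syt6, by 0.45 ± 0.09 (edgeR adjusted p = 0.00395), and the fitted effect in L6-Syt6 was the lower one in both pairs. Gpr22 differed between L2/3-Rorb and L5-S100b, by 0.48 ± 0.11 (edgeR adjusted p = 0.0307). For Gpr83 no pair of these subtypes, which leave out L2/3-Calb1, was called to differ, and L2/3-Rorb minus L5-S100b was 0.37 ± 0.25 (edgeR adjusted p = 0.725). Adgrl3 for L5-S100b minus L6-Syt6 was called in 6 of 7 alternative fits, and the others in 1 to 4 of 7. Without unsorted library 1, 2 or 3 the 6 members of L5-S100b against L6-Syt6 became 2, 1 and 2, and the 810 genes called became 402, 370 and 471.

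Partners of the receptors were followed in the same contrasts. Of 40 partner genes, 12 G protein alpha subunits, 7 arrestins and receptor kinases, 9 adenylyl cyclases, 11 adhesion receptor ligands and Psap, 28 to 35 were tested per subtype, and 2 were called, 1 of 35 in L5-S100b (2.7% of all genes) and 1 of 35 in L6-Syt6 (1.67%). Tenm3, a teneurin bound by latrophilins, was lower in barcode-high neurons of L5-S100b, with a log2 fold change of -0.59 ± 0.13 (edgeR adjusted p = 0.00482). C1ql3, a C1q-like protein bound by Adgrb3, was higher in those of L6-Syt6, with a log2 fold change of 1.00 ± 0.24 (edgeR adjusted p = 0.0404). In L5-S100b C1ql3 went the other way and stayed under the fold limit, at -0.36 ± 0.05 (edgeR adjusted p = 1.15e-05). The other partners past the p limit and under the fold limit in L5-S100b were Flrt3, a ligand of latrophilins, at -0.47 ± 0.12 (edgeR adjusted p = 0.0096), the receptor kinase gene Grk3 at -0.40 ± 0.10 (edgeR adjusted p = 0.00984) and the cyclase genes Adcy1 at 0.32 ± 0.05 (edgeR adjusted p = 0.000161) and Adcy2 at 0.42 ± 0.12 (edgeR adjusted p = 0.0221). In L6-Syt6 they were Tenm2 at -0.22 ± 0.06 (edgeR adjusted p = 0.0485) and Flrt1 at -0.21 ± 0.05 (edgeR adjusted p = 0.0283). No G protein subunit passed the p limit in any subtype, and no arrestin, kinase or cyclase passed both limits. Over the subtypes C1ql3 was at 9.58, 10.7, 18.4 and 21.1 CPM in L6-Syt6 and at 702, 754, 991 and 1157 CPM in L6-Npy, which are the subtypes with the lowest and highest mean of Adgrb3, at a ratio of 1.23.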

How the data were processed

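Single-cell transcriptomes of 4 libraries were used, 3 unsorted and 1 sorted for EGFP. The authors deposited raw UMI counts per gene and cell, made with Cell Ranger against mm10, and a table of their 9368 excitatory neurons with subtypes, which passed limits of 500 and 8000 on genes, of 1000 and 60000 on UMIs and of 20% on mitochondrial UMIs. These limits also take out cells of very high counts, and no doublet caller was run here. Free RNA was not subtracted. Per the labels, Seurat 3.1.4 and Scanpy were also used.

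Counts were summed per library and subtype, or per library, subtype and barcode group, with the viral feature left out of sums and tests. A contrast needed at least 10 neurons per group and library. edgeR 4.0.16 (filterByExpr, TMM factors, quasi-likelihood test) was fitted to all genes in R 4.3.3, with the library as a block because both cell groups come from the same library. Deviations of the 2 groups of a library from their group means correlated at 0.234 to 0.820 in the 4 subtypes with 4 libraries, and at -0.0356 to 0.0491 in L2/3-Calb1 and L5-Bcl6. The fits were tested on simulated counts. Alternatives were DESeq2 1.42.0 and RLE factors, no low-count filter, a limit of 1 barcode UMI, neurons of 10000 to 40000 UMIs, no block, and leaving out each library. The 75 gene IDs were matched to GENCODE M21. Other cells were gated at 3 or more markers of 1 class with at least 2 UMIs each and fewer than 2 of any other class.

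Some genes and markers that the rules match are not reported here and are not counted among members or markers. The members, role lists, partner lists and markers were chosen with earlier results of these data known. Named genes were all members called; the 3 smallest p per subtype; per subtype up to 4 members that stood apart as highest, with at least 5 CPM; per class up to 4 with at least 10 CPM and over 4 times the excitatory level; the 5 most and 5 least even members; and those next to the limit of 20 UMIs. Other members named in a clause were chosen after their values were seen. Intervals and SEs cover the spread of these libraries.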

Additional observations from a re-analysis of the deposited data

Results flagged for a closer look

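The effect of the barcode on a member differed between subtypes, by the edgeR test of the difference itself, in 8 cases for 6 members. Values are log2 differences of effects. For Adgrl3 they were 0.45 ± 0.09 for L5-S100b minus L6-Syt6 and 0.45 ± 0.09 for L6-Npy minus L6-Syt6, and for Gpr22 0.48 ± 0.11 for L2/3-Rorb minus L5-S100b and -0.36 ± 0.09 for L5-S100b minus L6-Syt6. For L5-S100b minus L6-Syt6 they were also -0.44 ± 0.12 for Gpr85, 0.38 ± 0.11 for Gpr158 and 0.41 ± 0.13 for Gpr137. For Adgrg6 the same difference came out as 2.28 ± 0.66, with 1.47 to 3.57 over the alternatives, but the gene did not pass the low-count filter in L6-Syt6, where it had 0 to 5 UMIs per library in barcode-high and 0 to 20 in barcode-zero neurons, so the value rests on near-empty counts. The cause was not tested. The subtypes of a library share their cells' source.

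Among 12 sets of 4 library ratios of the named members, 1 had a library far enough from the others to pass Dixon's critical value, where chance gives about 1 in 20. It was Gpr19 in L6-Syt6, whose log2 ratio of barcode-high to barcode-zero CPM was 1.25 in the sorted library and 0.185, 0.321 and 0.302 in unsorted libraries 1 to 3. The sorted value rests on 24 UMIs in barcode-zero neurons, where the unsorted ones had 269 to 292. The cause was not tested.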

How the results depend on the processing

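No call, named log2 fold change or difference between subtypes changed direction under the alternatives run. The median over members changed sign in every tested subtype but L6-Syt6. With DESeq2 it turned from 0.04 to -0.11 in L5-S100b, from 0.02 to -0.06 in L6-Npy, from -0.03 to 0.09 in L5-Bcl6 and from -0.03 to 0.02 in L2/3-Calb1. With no low-count filter it turned from -0.03 to 0.09 in L2/3-Rorb. Both settings take in more members. For the barcode contrast, 37 of 58 alternative counts of called members stayed within 1.5 times the reported count, 20 fell below it and 1 rose above it. For single named members 151 of 174 values kept their side of the limits and 23 lost their call. The cause was not tested.

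In L2/3-Rorb 0 members were called with DESeq2 (0 of 18013 genes of any kind) and without the replicate block (0 of 10038). The count was also 0 with no low-count filter (28 of 18013 genes) and with a limit of 1 barcode UMI (6 of 10322). Leaving out 1 library gave 0 to 1 members and 2 to 33 genes. In L5-Bcl6 the count was 0 with DESeq2 (0 of 16257 genes), RLE factors (0 of 8752) and a limit of 1 barcode UMI (0 of 9139). It was also 0 among neurons of 10000 to 40000 UMIs (0 of 8567 genes) and with no replicate block (1 of 8752). Leaving out 1 library gave 0 to 1 members and 4 to 31 genes. In L5-S100b it was 0 with DESeq2 (145 of 19271 genes) and without the replicate block (56 of 11477), and 1 with a limit of 1 barcode UMI (202 of 11636). Leaving out 1 library gave 0 to 2 members and 178 to 289 genes, with 0 members and 278 genes when this was the sorted one. In L6-Syt6 it was 0 to 1 when 1 library was left out (28 to 309 genes), with 1 member and 309 genes when this was the sorted one. Over the 4 calls, Gpr83 in L5-S100b kept its call in 7 of 10 alternatives, Adgrg6 in 4 of 10, Gpr83 in L2/3-Rorb in 3 of 10 and Adgra1 in 2 of 9.

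Members with a highest subtype numbered 28 to 31 when 1 unsorted library was left out (31 without unsorted library 1), where fewer values have to lie apart, 13 with all 4 libraries, where more have to, 21 with TMM factors and 20 among neurons of 10000 to 40000 UMIs. The share of all genes under these alternatives is not given here, so whether members moved differently from other genes is not shown.

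With a limit of 1 barcode UMI, 0 members differed between subtypes for L2/3-Rorb minus L5-S100b, L5-S100b minus L6-Syt6 and L6-Npy minus L6-Syt6. Of 12506 genes, 62, 400 and 65 did. Without the replicate block the count was 1 for L5-S100b minus L6-Syt6 (117 of 12081 genes) and 0 for the other pairs (1 to 17 genes). With no low-count filter it was 2 for L6-Npy minus L6-Syt6 (511 of 21688 genes). Leaving out 1 library gave 0 to 1 members for L2/3-Rorb minus L5-S100b (15 to 145 genes), 1 to 7 for L5-S100b minus L6-Syt6 (370 to 1042) and 0 to 2 for L6-Npy minus L6-Syt6 (138 to 531). The highest counts of the last 2 pairs came without the sorted library. At this depth 31 members had too few UMIs for any test, and Adgrg6 in L5-S100b rests on few UMIs per library.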
